A study of Mus musculus with 16 samples.

Results

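Glucuronidation, the attachment of glucuronic acid to drugs, bilirubin, steroids and other small molecules, was followed through 9 listed mouse genes: the UDP-glucuronosyltransferase genes Ugt1a6a, Ugt2a3, Ugt2b5, Ugt2b34, Ugt2b35, Ugt2b36 and Ugt3a2, and the genes Ugp2 and Ugdh that make the sugar donor. Members were chosen by the gene name that the scanner files give each probe that is not a control. Of the 9 genes, 8 had such a probe, with 10 probes between them, out of 28090 gene names and 41174 probes on the array. Ugt1a6a had no probe under its own name, and a probe that it shares with its relatives is described below.

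Liver RNA of 4 genotypes was compared on 2-colour Agilent arrays, in which RNA of one genotype carries Cy5 and RNA of the other Cy3. Nrf2 KO mice (labelled Nrf2-null or Nrf2-/-) lack the transcription factor encoded by Nfe2l2. Atg7 cKO mice (Atg7F/F:Mx1-Cre) lose the autophagy gene Atg7 when pIpC switches on Cre from the Mx1 promoter. The dKO mice (Atg7F/F:Mx1-Cre:Nrf2-/-) lack both, and WT mice are labelled wild type. All of them, controls included, received pIpC at the age of 8 weeks, and livers were taken 4 weeks later. The Mx1 promoter responds to interferon and is not restricted to hepatocytes, so Atg7 can also be lost from other liver cells. The labels do not say whether the WT and Nrf2 KO mice carried floxed Atg7 or Cre, nor which arrays came from the same animal.

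The 16 arrays formed 8 experiments, each hybridised in both dye orientations, and the average of the orientations was counted as 1 replicate. Nrf2 KO was set against WT in experiments 1 and 4, Atg7 cKO against WT in experiments 2 and 5, and dKO against WT in experiments 3 and 6. Experiments 7 and 8 set dKO directly against Atg7 cKO. Each comparison thus rests on n = 2, and precision is limited by how few arrays there are. Adjusted p-values are those of limma with Benjamini-Hochberg adjustment over all probes tested, and a probe was called higher or lower at an adjusted p under 0.05. They measure the spread between these experiments, part of which may be technical.

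In this pathway Ugp2 (UDP-glucose pyrophosphorylase) makes UDP-glucose from glucose 1-phosphate, and Ugdh (UDP-glucose dehydrogenase) oxidises it to UDP-glucuronate. UDP-glucuronosyltransferases of the endoplasmic reticulum then pass the glucuronic acid on, and carriers of the ABCC family export the glucuronides from the hepatocyte into bile or blood. Nrf2 activates antioxidant and detoxification genes, and loss of autophagy stabilises it through the adaptor p62, which binds the Nrf2 inhibitor Keap1.

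Closely related UGT transcripts can bind the same probe, so the probe letters are given for the members whose values differ most and for the closest pair of relatives. All are in the order of the deposited probe sequence, 5′ to 3′. Capitals mark the longest run that the probes of Ugt2b5 and Ugt2b37 have in common. The 60 bases are shown whole where the probe's mm9 coordinates span a gap longer than the probe, as across introns, and otherwise a stretch of 30 bases is shown.
Ugdh, bases 1 to 30: gactttgaagccatgaaatcactgtgctag
Ugp2, whole: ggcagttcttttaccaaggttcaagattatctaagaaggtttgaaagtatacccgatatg
Ugt2b35, bases 1 to 30: ctttatgttttctttttgatcacacataca
Ugt2b34, bases 1 to 30: atgtgttcaggctttatataaacacacaca
Ugt2b36, whole: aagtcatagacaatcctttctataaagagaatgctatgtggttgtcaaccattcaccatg
Ugt2b5, bases 31 to 60: acaatgaactacatgaacaAACTTTCAGCC
Ugt2b37, bases 1 to 30: cacatgaatgAACTTTCAGCCtcattctaa
Ugt2a3, bases 1 to 30: gtttgggaaagccctgagtgacaattatat
Ugt3a2, whole: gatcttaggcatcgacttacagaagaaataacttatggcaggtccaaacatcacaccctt
The run shared by Ugt2b5 and Ugt2b37 is 11 bases long, the longest between any member's probe and a probe of another UGT gene. Probes were compared only with probes and not with transcripts, so the length of a run does not show which transcripts a probe binds. The accessions that the files give for the Ugt2b36 probe include a transcript of Ugt2b37, so its signal may hold both. By their mm9 coordinates, Ugdh (chr5:65804760-65804819) lies apart from the Ugt2 cluster on the same chromosome, where Ugt2b34 (chr5:87319553-87319612), Ugt2b35 (chr5:87441721-87441780), Ugt2b36 (chr5:87495455-87509913), Ugt2b5 (chr5:87554199-87554258) and Ugt2a3 (chr5:87754406-87754465) follow each other. The Ugt2b35 probe is on the plus strand and those of the other 4 are on the minus strand. The probes of Ugt3a2 are on chromosome 15 (chr15:9300203-9300262 and chr15:9280929-9291221) and those of Ugp2 on chromosome 11 (chr11:21221281-21221340 and chr11:21223265-21228891). Exons and UTRs were not annotated here for this build.

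All 10 member probes were well above background in 24 of 24 channels of experiments 1 to 6. Median spot signals lay between 41.82 and 55.63 over arrays and dyes, and 43.42% to 57.19% of spots were well above background. The targeted Nfe2l2 had log2 ratios of -3.88 in Nrf2 KO (adjusted p = 0.0215) and -3.71 in dKO livers (adjusted p = 0.000658) at its most strongly changed probe, while 1 of its 3 probes did not differ (log2 ratio -0.06 in Nrf2 KO). Of the 2 Atg7 probes, 1 was lower in Atg7 cKO and dKO livers (log2 ratios -0.80 and -0.73, adjusted p = 0.000765 and 0.000819) and the other was not (-0.08 and -0.03). The labels do not give the deleted parts, so the probes that did not differ check nothing. Experiments 1 to 3 and 4 to 6 carried opposite sex-linked transcripts in all channels: Xist had a log2 signal of 10.87 to 11.34 in experiments 4 to 6 and of 5.75 to 5.8 in experiments 1 to 3, and Ddx3y ran the other way. Each comparison with WT holds 1 experiment of each set. Slides held pairs of experiments: 1 with 2, 3 with 4 and 5 with 6.

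Across the 10 probes, the pathway was split in Atg7 cKO livers and lower throughout in dKO livers. In Atg7 cKO livers 5 of 10 probes were higher (those of Ugdh, Ugp2, Ugt2b35 and Ugt2b34) and 4 were lower (those of Ugt2a3, Ugt2b5 and Ugt3a2), against 21.9% higher and 15.2% lower among all 23579 probes tested. In dKO livers 10 of 10 were lower, against 14.9% of all probes, and the median log2 ratio of the member probes was -1.51. None of the 10 passed the threshold in Nrf2 KO livers, where limma called 0.0127% of all probes. With the set of experiments (described above) as a block 2 did, Ugt2b35 and Ugdh (adjusted p = 0.0152 and 0.0427). With a dye term and the experiment as a random block 4 did: Ugt2b35, Ugt2b5, Ugdh and Ugt2b36 (adjusted p = 4.49e-07, 0.00087, 0.0111 and 0.0468). That fit took the arrays singly, with 1 correlation within experiments for all probes (0.63). Its p-values thus also draw on the repeat of each experiment in the other dye orientation. In the fit without a block or dye term, 5 of 10 had an unadjusted p under 0.05 in Nrf2 KO, against 3.68% of all probes. The loess normalisation sets the median log2 ratio of all probes near 0, so member ratios are relative to it. With median centring of each array in place of loess it was 0.18 in Atg7 cKO and 0.12 in dKO.

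**Figure D1:**
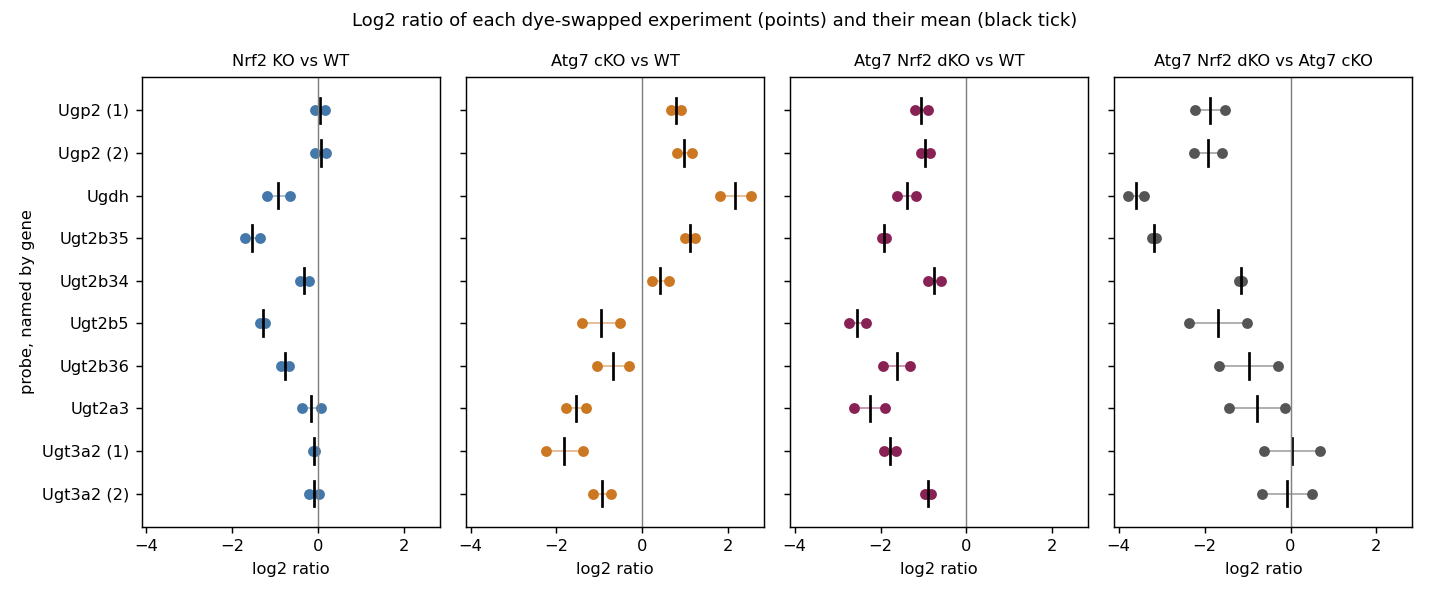
Log2 ratio of every member probe in each dye-swapped experiment (points) with the mean of both (black tick), for the 4 comparisons hybridised on arrays; the numbers in brackets tell probes of 1 gene apart. The points of Ugp2, Ugdh, Ugt2b35 and Ugt2b34 lie right of 0 in Atg7 cKO vs WT and left of it in dKO vs WT, while those of Ugt2a3 and Ugt3a2 lie left of it in both.

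Ugdh, whose product makes the sugar donor of every UDP-glucuronosyltransferase, showed the widest swing of the members. Its log2 signal was 9.81 and 9.99 in Nrf2 KO livers, 12.82 and 12.86 in Atg7 cKO livers and 9.42 and 9.53 in dKO livers, against 10.3, 10.81 and 11.19 (lowest, median and highest of 6 channels) in WT livers. Both Atg7 cKO values lay above every WT value, and the values of both Nrf2-deficient genotypes lay below every WT value. In Atg7 cKO livers Ugdh was 4.50-fold higher than in WT (log2 ratio 2.17 ± 0.50, SD, n = 2, adjusted p = 0.00232). In dKO livers it was lower than in WT (log2 ratio -1.39 ± 0.32, adjusted p = 0.00801, limma), a call that was lost without experiment 6 (adjusted p = 0.0744). Hybridised directly, dKO gave log2 ratios of -3.79 and -3.42 against Atg7 cKO, which makes the Atg7 cKO level 12.2 times the dKO level (adjusted p = 0.00127). The same difference taken through WT was -3.56 (adjusted p = 0.0106). In Nrf2 KO livers Ugdh had log2 ratios of -0.66 and -1.20, with an adjusted p of 1 in limma and an unadjusted p of 0.00741. The order of the levels was thus Atg7 cKO, WT, Nrf2 KO and dKO, where Nrf2 KO was not called different from WT and the last pair was not compared.

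The RefSeq start region of Ugdh is shown because it held the letters of the antioxidant response element, through which Nrf2 acts, and that of Ugt2b35 because both genes moved alike. These are the 250 bases before the annotated start on GRCm38.p6, a later build than that of the probe coordinates, and capitals mark TGACNNNGC on either strand.
Ugdh, chr5:65435843-65436092, minus strand: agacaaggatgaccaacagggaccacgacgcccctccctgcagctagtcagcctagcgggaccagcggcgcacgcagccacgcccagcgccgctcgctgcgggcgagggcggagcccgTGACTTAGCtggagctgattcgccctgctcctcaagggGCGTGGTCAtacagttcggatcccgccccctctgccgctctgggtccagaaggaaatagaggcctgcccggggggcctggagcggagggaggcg
Ugt2b35, chr5:87000610-87000859, plus strand: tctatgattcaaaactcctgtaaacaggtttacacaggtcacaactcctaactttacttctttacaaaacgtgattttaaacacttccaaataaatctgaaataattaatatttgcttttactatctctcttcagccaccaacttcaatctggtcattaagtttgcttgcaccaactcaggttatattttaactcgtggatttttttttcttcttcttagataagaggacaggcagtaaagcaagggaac
Both strands of windows of 300 bases (250 before and 50 after the start) were searched, and 8 of the 9 members had such a window. TGACNNNGC was found in 1 member, Ugdh, at positions -132 and -94 from the start, and in 12.4% of all 32851 windows. GCGTG, the core of the xenobiotic response element that the aryl hydrocarbon receptor binds, was found in Ugdh and Ugp2 and in 32.4% of all windows. One GCGTG of Ugdh lies within its second TGACNNNGC match. The windows of Ugt2b35 and of the other matched UGT members held neither run of letters. A match is a description of the letters only.

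Ugp2, the enzyme one step before Ugdh, moved the same way at both of its probes, with smaller changes. At the probe shown above its log2 signal was 10.59 and 10.55 in Nrf2 KO livers, 11.65 and 11.37 in Atg7 cKO livers and 9.35 and 9.77 in dKO livers, against 10.39, 10.53 and 10.63 (lowest, median and highest of 6) in WT livers. The Atg7 cKO values lay above and the dKO values below every WT value, while Nrf2 KO lay within the WT range. The log2 ratio in Atg7 cKO was 0.98 ± 0.25 at this probe and 0.78 ± 0.17 at the other (SD, n = 2, adjusted p = 0.00316 and 0.00482, limma). In dKO it was -0.96 ± 0.15 and -1.05 ± 0.20 (adjusted p = 0.00339 and 0.00221, limma). The direct experiments gave -2.25 and -1.60 at the probe shown and -2.23 and -1.54 at the other (adjusted p = 0.00442 and 0.00465), calls that were lost with experiments 7 and 8 alone (0.0642 and 0.068).

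Ugp2 was also the member called for a response to the double knockout that departed from the sum of the single knockouts. That interaction (dKO minus Atg7 cKO minus Nrf2 KO, on the log2 scale) was -1.997 and -1.87 at its 2 probes (adjusted p = 0.034 for both), which were the 2 called of 10 member probes, against 0.513% of all probes called lower. The call was lost with the scanner's processed signals, with median centring, with slide as a block and without any 1 of the 6 experiments, except that at the probe shown it held without experiment 5. The interaction of Ugdh was -2.63 (adjusted p = 0.0691) and that of Ugt2b35 -1.49 (adjusted p = 0.0503). Both passed the threshold with a normexp offset of 10 and with the set of experiments as a block. That of Ugt2b34, -0.85 (adjusted p = 0.197), passed with the set as a block (0.0298), and all 3 passed with the dye term.

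**Figure D2:**
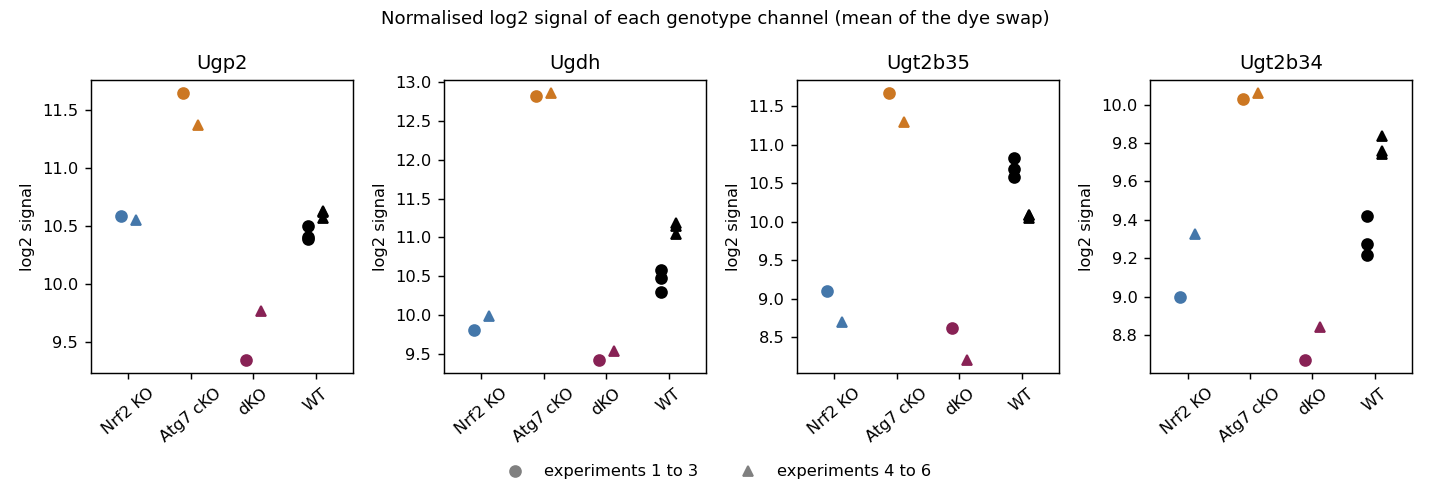
Normalised log2 signal of Ugp2, Ugdh, Ugt2b35 and Ugt2b34 in each genotype channel, each point the mean of a dye swap; circles are experiments 1 to 3 and triangles experiments 4 to 6, and the vertical axes differ. Atg7 cKO points lie above and dKO points below every WT point in all 4 panels.

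Around these enzymes, a list of 12 genes that feed or draw on UDP-glucose was split. In Atg7 cKO livers 7 were higher and 2 lower, against 21.9% and 15.2% of all probes. In dKO livers 2 were higher and 7 lower, against 19.3% and 14.9%. The genes behind these counts were the same only in part: Pgm2, Gbe1 and Slc35d1 alone were called higher in Atg7 cKO and lower in dKO. Gys2 was lower in dKO (log2 ratio -1.43, adjusted p = 0.0121, limma) and not called in Atg7 cKO (-0.68). Pygl was lower in both (-0.86 in Atg7 cKO and -1.18 in dKO). The median log2 ratio of the list was 0.50 in Atg7 cKO and -0.53 in dKO livers. Pgm2, a phosphoglucomutase, was higher in Atg7 cKO (log2 ratio 0.62, adjusted p = 0.00486) and lower in dKO livers (-0.90, adjusted p = 0.0018). The glycogen branching enzyme Gbe1, which uses chains built from UDP-glucose, gave 1.31 in Atg7 cKO (adjusted p = 0.000894) and -1.06 in dKO (adjusted p = 0.00119). Slc35d1, which carries UDP-glucuronate into the endoplasmic reticulum, gave 0.91 and -0.43 in the same comparisons (adjusted p = 0.00358 and 0.0365). In the direct experiments 5 of the 12 were lower in dKO than in Atg7 cKO, against 7.36% of all probes, among them Gbe1 (-2.40, adjusted p = 0.00082) and Slc35d1 (-1.48, adjusted p = 0.0032). Galt, a galactose pathway enzyme, was lower in both Atg7 cKO (-1.10) and dKO livers (-0.63), with adjusted p-values of 0.00141 and 0.00568. Ugcg, which uses UDP-glucose for glucosylceramide, was higher in both (0.55 and 0.96, adjusted p = 0.00474 and 0.00119).

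Among the transferases, Ugt2b35 followed Ugdh. Its log2 signal was 9.10 and 8.69 in Nrf2 KO livers, 11.67 and 11.3 in Atg7 cKO livers and 8.62 and 8.2 in dKO livers, against 10.05, 10.33 and 10.82 (lowest, median and highest of 6) in WT livers. No value of a knockout lay within the WT range: Atg7 cKO was above it, Nrf2 KO and dKO below it. Ugt2b35 was 2.15-fold higher in Atg7 cKO than in WT (log2 ratio 1.11 ± 0.17, SD, n = 2, adjusted p = 0.0019) and lower in dKO (log2 ratio -1.92 ± 0.06, adjusted p = 0.000716, limma). The direct log2 ratios of dKO over Atg7 cKO were -3.13 and -3.23 (adjusted p = 0.000374), and the difference through WT was -3.03 (adjusted p = 0.00289). In Nrf2 KO livers its log2 ratios were -1.72 and -1.36 (adjusted p = 0.103, limma), the lowest adjusted p of any member in that comparison, and it passed the threshold with a normexp offset of 10 (adjusted p = 0.0302), with median centring (0.0451) and with the set of experiments as a block (0.0152).

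Ugt2b34 showed the same signs with smaller changes. Its log2 signal was 8.998 and 9.33 in Nrf2 KO livers, 10.03 and 10.06 in Atg7 cKO livers and 8.67 and 8.84 in dKO livers, against 9.22, 9.58 and 9.84 (lowest, median and highest of 6) in WT livers. The Atg7 cKO values lay above and the dKO values below every WT value. The log2 ratio was 0.42 ± 0.28 in Atg7 cKO (SD, n = 2, adjusted p = 0.0477, limma), a call lost with the scanner's processed signals (adjusted p = 0.0864), without the filter on dim probes (0.0714) and without any 1 experiment other than experiment 5. In dKO livers it was -0.75 ± 0.21 (adjusted p = 0.00881, limma), lost with median centring (0.108) and without experiment 6 (0.0789). The direct log2 ratios of -1.20 and -1.13 differed least between experiments among the members (adjusted p = 0.00701), and this call was lost with experiments 7 and 8 alone (0.0744) and without experiment 7 (0.0847).

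The livers without Atg7 also differed from WT in cell type markers. Summed over 5 hepatocyte markers, the linear signal was 55176 to 57467 in Nrf2 KO, 26834 to 29414 in Atg7 cKO and 27788 to 46545 in dKO livers, against 46852 to 76588 in WT livers. Of these 5, 4 were lower in Atg7 cKO and 3 in dKO livers, against 15.2% and 14.9% of all probes. Alb, the gene of albumin, had a log2 ratio of -1.41 in both. The 4 periportal markers summed to 21850 to 26101 in Nrf2 KO, 13765 to 17012 in Atg7 cKO and 6897 to 11285 in dKO, against 26804 to 37935 in WT livers, and Cdh1 among them was higher in both Atg7 cKO and dKO. The 6 pericentral markers summed to 18601 to 19755, 5292 to 6931 and 10987 to 13601 in the same genotypes, against 19251 to 34553 in WT livers. Of these 6, 3 were lower in Atg7 cKO and 1 in dKO livers, against 15.2% and 14.9% of all probes, and none was higher. Rhbg, Axin2 and Lgr5 had log2 ratios of 0.59, -0.06 and -0.62 in Atg7 cKO livers and were called in neither genotype.

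Several markers of other cells ran the opposite way. The counts below stand against 21.9% higher and 15.2% lower of all probes in Atg7 cKO, and 19.3% and 14.9% in dKO livers. All 5 macrophage markers were higher in both Atg7 cKO and dKO livers, with sums of 1888 to 2029 in Nrf2 KO, 8279 to 11662 in Atg7 cKO and 16714 to 20164 in dKO, against 1862 to 2448 in WT. On the direct arrays 1 of the 5, Marco, was higher in dKO than in Atg7 cKO, against 5.68% of all probes. Its log2 ratio was 1.44 (adjusted p = 0.0132, limma), and the other markers of this list were not called. Of 5 stellate cell markers 4 were higher in both, with sums of 2489 to 2652 in Atg7 cKO and 2431 to 2462 in dKO, against 1001 to 1134 in WT. The 4 measured cholangiocyte markers summed to 3452 to 3535 in Atg7 cKO and 3827 to 4493 in dKO, against 741 to 973 in WT, and 2 of the 4 were higher in each, Spp1 and Sox9, while Krt7 and Krt19 were not called. Of 4 measured neutrophil markers 2 were higher in each, with sums of 639 to 1299 in Atg7 cKO and 2676 to 4564 in dKO, against 390 to 541 in WT. The 5 endothelial markers summed to 1390 to 1469 in Atg7 cKO and 882 to 1249 in dKO, against 1151 to 1329 in WT. Of these, Lyve1 and Cdh5 were higher in Atg7 cKO (log2 ratios 1.19 and 0.48), and in dKO Cdh5 was higher (0.56) while Stab2 and Kdr were lower (-0.33 and -0.59). The 4 measured lymphocyte markers summed to 322 to 327 in Atg7 cKO and 355 to 383 in dKO, against 300 to 333 in WT. Among them Nkg7 was higher in both (0.39 and 0.88). In whole liver RNA, fewer hepatocytes and less RNA per hepatocyte cannot be told apart, and the part of cell makeup in the member ratios was not tested. In Atg7 cKO livers, where the hepatocyte sums were lower, the probes of Ugdh, Ugp2, Ugt2b35 and Ugt2b34 were higher and those of Ugt2a3, Ugt2b5 and Ugt3a2 lower.

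Ugt2b5 and Ugt2b36, which with Ugt2b37 lie side by side in the cluster, were lowest in dKO livers. Ugt2b5 had a log2 signal of 10.76 and 10.57 in Nrf2 KO livers, 11.62 and 10.68 in Atg7 cKO livers and 9.47 and 9.84 in dKO livers, against 11.81, 12.13 and 12.21 (lowest, median and highest of 6) in WT livers. Every knockout value lay below the lowest WT value. The log2 ratio was -0.96 ± 0.62 in Atg7 cKO (SD, n = 2, adjusted p = 0.0215) and -2.55 ± 0.28 in dKO (adjusted p = 0.00141, limma), and -1.30 ± 0.08 in Nrf2 KO with an adjusted p of 0.611 and an unadjusted p of 0.00148. The call in Atg7 cKO was lost with median centring (adjusted p = 0.106), without experiment 1 or 4 (0.0506 for each) and without experiment 5 (0.0859). The direct log2 ratios of dKO over Atg7 cKO, -2.38 and -1.02, differed widely (adjusted p = 0.0316), and the call was lost without the filter on dim probes (0.0894), with experiments 7 and 8 alone (0.133) and without experiment 7, where the value was -1.02 (0.23).

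Ugt2b36 had log2 signals of 12.1 and 11.84 in Nrf2 KO livers, 12.62 and 11.66 in Atg7 cKO livers and 11.11 and 11.33 in dKO livers, against 12.51, 12.83 and 13.04 (lowest, median and highest of 6) in WT livers. The dKO and Nrf2 KO values lay below every WT value, and 1 of the 2 Atg7 cKO values lay within the WT range. It was lower in dKO (log2 ratio -1.62 ± 0.44, SD, n = 2, adjusted p = 0.005, limma). In Atg7 cKO livers the log2 ratios were -0.32 and -1.07 (adjusted p = 0.0594, limma), which made it the 1 member probe not called in that comparison. It passed the threshold there with a normexp offset of 10 and with a dye term and the experiment as a random block. The direct log2 ratios were -1.66 and -0.28 (adjusted p = 0.122), so a difference between dKO and Atg7 cKO was not shown, and its 95% interval was -1.84 to -0.11 on the log2 scale before adjustment over all probes.

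Ugt2a3 and Ugt3a2 were lower in both genotypes without Atg7 and differed little from WT in Nrf2 KO livers. Ugt3a2 is a relative that in human uses other UDP-sugars than UDP-glucuronate. The log2 signal of Ugt2a3 was 11.57 and 11.17 in Nrf2 KO livers, 10.58 and 10.23 in Atg7 cKO livers and 9.15 and 10.12 in dKO livers, against 11.51, 11.82 and 12.02 (lowest, median and highest of 6) in WT livers. Its log2 ratio was -1.54 ± 0.33 in Atg7 cKO (SD, n = 2, adjusted p = 0.0051) and -2.26 ± 0.50 in dKO (adjusted p = 0.00188, limma). Between dKO and Atg7 cKO the direct log2 ratios were -1.43 and -0.13 (adjusted p = 0.185), with a 95% interval of -1.63 to 0.07.

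The brighter Ugt3a2 probe had log2 signals of 11.67 and 11.53 in Nrf2 KO livers, 10.26 and 9.51 in Atg7 cKO livers and 9.81 and 10.06 in dKO livers, against 11.64, 11.7 and 11.75 (lowest, median and highest of 6) in WT livers. Atg7 cKO and dKO values overlapped each other and lay below all of WT. The log2 ratio was -1.81 ± 0.60 in Atg7 cKO (SD, n = 2, adjusted p = 0.00279) and -1.77 ± 0.19 in dKO (adjusted p = 0.00301, limma). The direct experiments pointed in opposite directions, -0.61 and 0.68, with a 95% interval of the difference of -0.77 to 0.84. The other Ugt3a2 probe was dim, and there the processing set the size: its log2 ratios in Atg7 cKO were -0.72 and -1.15 after normexp and -1.71 and -3.00 in the deposited value table.

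In experiment 7 the dKO over Atg7 cKO ratios of Ugt2a3, Ugt2b5, Ugt2b36 and Ugt3a2 were all lower than in experiment 8, by more than 1 log2 unit each, whereas those of Ugdh, Ugt2b35 and Ugt2b34 lay within 0.5 of each other. Of the 10 member probes, 6 were lower in dKO than in Atg7 cKO on the direct arrays (those of Ugdh, Ugp2, Ugt2b35, Ugt2b34 and Ugt2b5), against 7.36% of all 23581 probes, and none was higher, against 5.68%. Through WT, on other arrays, 5 were lower (the same genes without Ugt2b5), against 2.81% of all probes. Without experiment 3, 3 of these calls were lost, those of Ugdh, Ugt2b34 and 1 Ugp2 probe (adjusted p = 0.0505, 0.0939 and 0.0585).

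No probe carries the name Ugt1a6a. One probe named Ugt1a6b (chr1:90115472-90115531, mm9), at the common end of the Ugt1a genes, lists accessions of Ugt1a6a, Ugt1a6b, Ugt1a7c and Ugt1a10, so that these cannot be told apart. Lying at the common end, this probe may also bind transcripts of the other Ugt1a genes. Its log2 ratio was -0.25 in Nrf2 KO, -0.55 in Atg7 cKO (adjusted p = 0.06) and -1.48 in dKO livers (adjusted p = 0.00347), and -0.996 in dKO against Atg7 cKO directly (adjusted p = 0.0415).

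The other 8 measured UGT genes of the 15 listed were mostly lower without Atg7. In Atg7 cKO livers 6 were lower and 1 was higher, and in dKO livers 8 were lower, against 15.2% lower and 21.9% higher, and 14.9% lower, of all probes. Their median log2 ratios were -1.01 and -1.88. These counts take Ugt1a6b from the shared probe just described, which may not be independent of Ugt1a1 and Ugt1a9. The other Ugt1a6b probe, which lists that gene alone, was lower in both Atg7 cKO and dKO (-0.26 and -0.64, adjusted p = 0.00792 and 0.000897). The Ugt2b38 probe also lists accessions of Ugt2b37 and Ugt2b5, so it is not independent of them. The Ugt2a1 probe also lists Ugt2a2, so these cannot be told apart. Ugt1a9 was the 1 higher in Atg7 cKO (log2 ratio 0.67, adjusted p = 0.0057), and it was lower in dKO (-0.46, adjusted p = 0.0192) and in dKO against Atg7 cKO directly (-1.66, adjusted p = 0.00887). Ugt1a1, the bilirubin transferase, was lower in both Atg7 cKO and dKO livers (-1.16 and -1.38, adjusted p = 0.00552 and 0.0035). Ugt2b1 gave -1.26 in Atg7 cKO and -2.89 in dKO livers, and -2.08 on the direct arrays (adjusted p = 0.00781, 0.000977 and 0.00949). Within the cluster on chromosome 5, Ugt2b1 lies between Ugt2b34 and Ugt2b35, and its sign in Atg7 cKO livers was opposite to that of both neighbours.

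**Figure D3:**
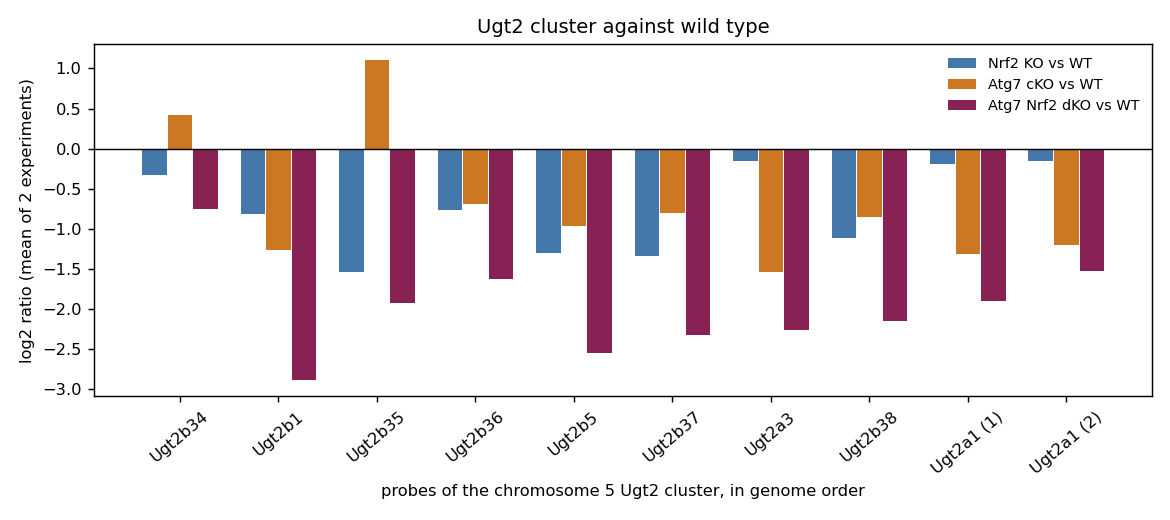
Mean log2 ratio of the 10 detected probes of the Ugt2 cluster in genome order (bars, n = 2 experiments each), for Nrf2 KO, Atg7 cKO and dKO against WT. Only the Atg7 cKO bars of Ugt2b34 and Ugt2b35 lie above 0 (0.42 and 1.11), and every dKO bar lies below it.

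Over the 8 experiments of the value table, the genes most like each member were found by the root mean square difference of log2 ratios among 16418 other genes. Ugt2a3 was closest to Ugt2a1 (0.0956 log2 units), Ugt2b5 to Ugt2b37 (0.115), and Ugt3a2 to Tmem25 (0.118) and then its neighbour Ugt3a1 (0.17). Ugt2a1 and Ugt2b37 are other members of the cluster, and the signal given for Ugt2a1 may also hold Ugt2a2. Ugt2b34 was closest to Glrx, which encodes glutaredoxin (0.122), and to Aldh1a7 (0.171), an aldehyde dehydrogenase. Ugt2b35 was closest to the carboxylesterase Ces2 (0.444) and the exporter Abcc3 (0.452), Ugt2b36 to Cdh13 (0.268) and Wnt2 (0.296), Ugdh to Gstm4, a glutathione transferase (0.511), and to Cyp2a22 (0.521), and Ugp2 to Klhl13 (0.227) and Pgm2 (0.26). The smallest distances of Ugdh and Ugt2b35 to any other gene were thus larger than those of the rest. The distance is not scaled to the size of a gene's ratios, so it does not show whether their pattern is less shared. Among the members the closest pair was Ugt2a3 and Ugt3a2 (0.549) and the farthest Ugt3a2 and Ugdh (2.81).

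Of 7 carriers of glucuronides, 3 were higher and 2 lower in Atg7 cKO, against 21.9% and 15.2% of all probes, and 4 were lower in dKO livers, against 14.9%, with median log2 ratios of 0.72 and -1.07. Abcc4, which exports conjugates to the blood, was higher in Atg7 cKO (log2 ratio 3.97, adjusted p = 0.000758), had 0.12 in dKO (adjusted p = 0.714), and was lower in dKO than in Atg7 cKO on the direct arrays (-4.51, adjusted p = 0.0033). Abcc3, another exporter to the blood, gave 0.95 in Atg7 cKO and -1.58 in dKO livers, and -2.56 directly (adjusted p = 0.022, 0.0049 and 0.00411). Abcc2, the exporter to bile, was higher in Atg7 cKO (0.78, adjusted p = 0.00396) and lower in dKO than Atg7 cKO (-1.15, adjusted p = 0.00663). The uptake carrier Slco1b2 was lower in both Atg7 cKO and dKO livers (-1.08 and -0.96, adjusted p = 0.0072 and 0.0105).

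**Figure D4:**
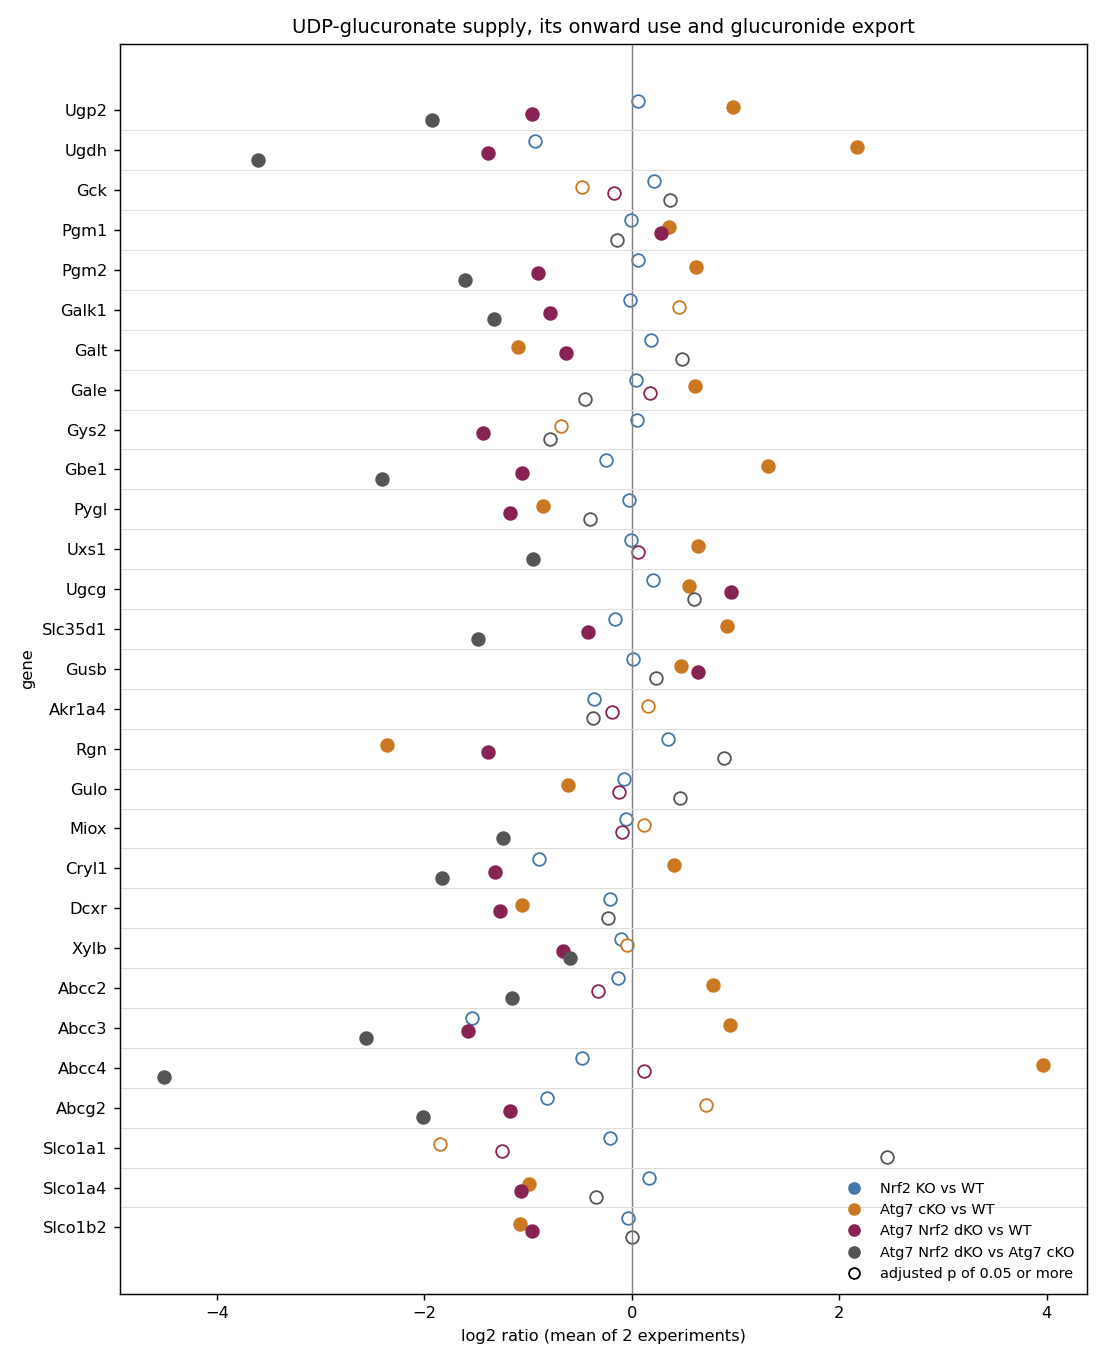
Mean log2 ratio (n = 2 experiments) of Ugp2, Ugdh and every measured gene of the lists of UDP-glucose supply (12 genes), glucuronate release and onward use (8) and carriers (7), from top to bottom, in the 4 hybridised comparisons; open circles did not pass the threshold of 0.05. Ugdh, Gbe1, Abcc3 and Abcc4 lie right of 0 in Atg7 cKO vs WT and left of it in dKO vs Atg7 cKO, while Galt, Pygl, Rgn, Dcxr and Slco1a4 lie left of 0 in Atg7 cKO vs WT (-1.10, -0.86, -2.36, -1.06 and -0.99).

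Genes that release glucuronate or use it further did not share 1 pattern: of 8 measured, 2 were higher and 3 lower in Atg7 cKO, and 1 was higher and 4 lower in dKO livers. Among all probes 21.9% were higher and 15.2% lower in Atg7 cKO, and 19.3% higher and 14.9% lower in dKO. Cryl1, a dehydrogenase of the glucuronate pathway, was higher in Atg7 cKO (log2 ratio 0.41, adjusted p = 0.0249) and lower in dKO livers (-1.32, adjusted p = 0.00105). Gusb, the glucuronidase that removes glucuronic acid, was higher in both (0.48 and 0.64, adjusted p = 0.0429 and 0.0196). Rgn, which acts on the route to ascorbate, was lower in both (-2.36 and -1.39, adjusted p = 0.00202 and 0.00884), as was Dcxr, the xylulose reductase gene (-1.06 and -1.27, adjusted p = 0.0162 and 0.00952). Gulo, on the same route as Rgn, was lower in Atg7 cKO (-0.61, adjusted p = 0.0122). For sulfate conjugation, a parallel route, 1 of 8 genes was higher and 3 were lower in Atg7 cKO, and 1 was higher and 2 were lower in dKO livers, beside the same shares of all probes. Sult1e1, the oestrogen sulfotransferase, was higher in both (2.04 and 2.01, adjusted p = 0.00862 and 0.0093), and on the direct arrays Sult5a1 was higher in dKO than in Atg7 cKO (1.75, adjusted p = 0.0468) and none was lower, against 7.36% of all probes.

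Of 11 measured regulators of UGT genes, 6 were lower and 1 higher in each of Atg7 cKO and dKO livers, against 15.2% lower and 21.9% higher, and 14.9% lower and 19.3% higher, of all probes. The genes differed: the 6 in dKO include the deleted Nfe2l2, which was the 1 higher in Atg7 cKO (log2 ratio 1.20, adjusted p = 0.00704). Rxra was lower in Atg7 cKO (-0.68, adjusted p = 0.00651) and not called in dKO (-0.33, adjusted p = 0.0584), and Arnt was the 1 higher in dKO (0.17, adjusted p = 0.0404). Nr1i3, which encodes the receptor CAR, gave log2 ratios of -1.25 and -1.75 (adjusted p = 0.0108 and 0.00415). Cebpa gave -0.90 and -1.21 (adjusted p = 0.00391 and 0.00186). Apart from Nfe2l2, none of the 11 was called between dKO and Atg7 cKO on the direct arrays. Among all probes 7.36% were lower and 5.68% higher on those arrays. There Nr1i3 had a log2 ratio of -1.09 ± 1.03 (SD, n = 2, adjusted p = 0.13, limma), so a difference was neither shown nor excluded. Of 7 measured readouts of the xenobiotic receptors, 2 were higher and 3 lower in Atg7 cKO, and 1 was higher and 3 were lower in dKO livers, beside the same shares of all probes. Targets of the aryl hydrocarbon receptor did not share 1 pattern. Cyp1a2 was higher in Atg7 cKO (0.44, adjusted p = 0.0427) and lower in dKO livers (-1.57, adjusted p = 0.00119). Cyp1a1 was higher in Atg7 cKO (1.14, adjusted p = 0.0104) and had -0.02 in dKO (adjusted p = 0.949), while Tiparp had 0.42 in Atg7 cKO (adjusted p = 0.106) and was higher in dKO (0.98, adjusted p = 0.0104). Cyp4a10 and Cyp4a14, targets of the receptor encoded by Ppara, were lower in Atg7 cKO (-3.50 and -2.88, adjusted p = 0.00141 and 0.0263) and in dKO livers (-3.03 and -2.41, adjusted p = 0.00187 and 0.047). The third readout lower in Atg7 cKO livers was Cyp3a11 (adjusted p = 0.0256).

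The 6 reference targets of Nrf2 were all higher in Atg7 cKO livers, against 21.9% of all probes, with a median log2 ratio of 2.1. In dKO livers 4 of them were lower and 1 higher, against 14.9% and 19.3% of all probes, with a median of -0.46. Srxn1, which encodes sulfiredoxin, gave 4.18 in Atg7 cKO and -0.33 in dKO livers (adjusted p = 3.27e-05 and 0.00855), and the quinone reductase gene Nqo1 gave 2.23 and -0.76 (adjusted p = 0.00148 and 0.0313). Hmox1, the haem oxygenase gene, was the 1 higher in both (1.31 and 1.53, adjusted p = 0.000843 and 0.000681). Set beside these, Ugdh had a log2 ratio of 2.17 in Atg7 cKO and -1.39 in dKO livers.

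In WT livers the 2 sets of experiments with opposite sex-linked transcripts also differed for several members. Of the 10 probes, 6 had values that did not overlap between the sets, against 39.4% of all 23579 probes. The mean log2 signal was 11.12 in experiments 4 to 6 and 10.45 in experiments 1 to 3 for Ugdh, and 9.78 and 9.3 for Ugt2b34 in the same order of sets. It was 10.07 in experiments 4 to 6 and 10.7 in experiments 1 to 3 for Ugt2b35, and 12.62 and 12.98 for Ugt2b36. Ugdh and Ugt2b34 were thus higher and Ugt2b35 and Ugt2b36 lower in experiments 4 to 6. No sex is stated for the mice, and what else differs between the sets cannot be told apart from it. The sign of the Atg7 cKO and dKO ratios of these 4 genes was the same in both sets.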

How the data were processed

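Members and gene lists were chosen with earlier results of these data known. Scanner files of 12 arrays carry mm9 coordinates and come from Feature Extraction (version 9.5.1.1 per the file headers, while the submitters' processing notes name 9.5.1). They hold, as deposited, the mean signal and median background of each spot as intensity. The deposited value table holds log10 ratios of Cy5 over Cy3 for all 16 arrays and differed from the log10 ratios in the scanner files by at most 0.005. The scanner's processed signals served as an alternative.

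Intensities were corrected with normexp (offset 50), normalised by loess within arrays in limma 3.58.1 (R 4.3.3), turned to knockout over partner and averaged over dye swaps, without control spots and outlier flags. The offset shrinks ratios of dim probes. Probes had to exceed background well in at least 4 of 24 channels, which left 23579 probes tested. WT comparisons came from 1 fit of 3 group means (experiments 1 to 6), the direct one from 1 fit of 4 group means on the value table as log2. Pooled spread gave 3 and 4 residual degrees of freedom, and the fit was tested on simulated data. All member probes were named. From each list at most 5 genes per comparison were eligible, those past the threshold with the largest change of the brightest probe. Scanner files of experiments 7 and 8 were not used here.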

Additional observations from a re-analysis of the deposited data

Results flagged for a closer look

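For Ugt2b5 the log2 signal in WT livers was 11.81 in experiment 4, low against the other 5 WT channels by Dixon's criterion for 6 values. Chance flags about 1 in 20 groups, and 10 probes were tested. For Ugp2 the response to the added loss of Nrf2 was called different between livers with and without Atg7. The interaction was -1.87 and -1.997 on the log2 scale at its 2 probes (adjusted p = 0.034 for both, limma). Both calls were lost with the scanner's processed signals, with median centring and with slide as a block, besides the other losses given above.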

How the results depend on the processing

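Counts of called probes depended on the processing, and so did some calls of member probes. For Nrf2 KO against WT the 3 called probes became 11 with slide as a block, 16 with the set of experiments as a block and 131 with a dye term and the experiment as a random block, and 0 to 3 when 1 experiment was left out. Leaving out 1 experiment gave 4150 to 7833 for Atg7 cKO (8748 in all) and 3557 to 8129 for dKO (8063 in all). For dKO against Atg7 cKO through WT the 1012 became 246 with processed signals, 474 with median centring, 374 with slide, 1785 with set, 3270 with the dye term and 159 to 501 with 1 experiment left out. For the interaction the 153 became 3, 81, 32, 422, 1537 and 2 to 104 in the same order. For the direct comparison the 3075 became 5692 with the dye term, 233 with experiments 7 and 8 alone and 369 to 1315 without 1 of them. Median centring moved the median of all probes to 0.18 in Atg7 cKO and 0.12 in dKO.

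Over the member probes, 666 values under an alternative kept their direction and side of the threshold, 47 lost a call, 27 gained one and 20 changed sign, all 20 of them values not called. Under median centring Ugt3a2 (brighter probe) had 0.0439 in Nrf2 KO, -0.17 through WT and -0.21 as interaction, and under slide as a block the interaction of Ugt2b36 was 0.0229. With 1 experiment left out, Nrf2 KO ratios ranged from -0.38 to 0.0635 for Ugt2a3, from -0.21 to 0.0226 for the dim Ugt3a2 probe, and from -0.0767 to 0.17 and -0.0741 to 0.19 for the Ugp2 probes. Interactions ranged from -0.72 to 0.15 for Ugt2b5, -0.54 to 0.21 for Ugt2b36, and -0.29 to 0.56 and -0.0714 to 0.35 for the Ugt3a2 probes. The Ugt3a2 probes ranged from -0.38 to 0.47 and -0.17 to 0.26 through WT, and from -0.61 to 0.68 and -0.66 to 0.51 directly. Where leaving out an experiment left 1 in a comparison, it was assumed to vary like the others. The cause of these changes was not tested. Experiment numbers are not shared between comparisons and so pair nothing; the blocks by set and by slide given above are the blocked fits that were run.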
